A study of Mus musculus with 2 samples.

Results

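The nuclear-encoded subunits of the mitochondrial respiratory chain and ATP synthase were followed in PiZ mouse liver areas cut out by laser. Members were all probe sets whose platform annotation names exactly 1 gene symbol beginning with Nduf, Uqcr or Atp5, or being Sdha to Sdhd, a Cox4 to Cox8 subunit, Cycs or Cyc1. Symbols marked as pseudogenes were left out. The rule took 98 probe sets, which name 93 of 30142 genes in the table. Of these genes, 85 encode subunits or cytochrome c, and 8 (Ndufaf1 to Ndufaf7 and Atp5sl) are assembly factors that the prefixes also take. The rule used symbols only, and no measured value.

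Globule-containing areas and globule-free areas were compared, with 1 array each, and each array held RNA pooled from 2 mice. Both come from untreated C57BL/6 mice, 3 months old and on standard chow, that carry the human gene and promoter of ATZ, the Z mutant of alpha-1-antitrypsin; no non-transgenic liver was analysed here. The mutant protein polymerises in the endoplasmic reticulum of hepatocytes and builds up as globules, and areas with or without them were cut from frozen sections stained with Cresyl Violet, so they were chosen by morphology. The labels do not say whether the same mice gave both pools. Without replicates, a difference reported here compares 2 arrays.

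The respiratory chain sits in the inner mitochondrial membrane. Complex I (NADH dehydrogenase) and complex II (succinate dehydrogenase) pass electrons to coenzyme Q, complex III hands them to cytochrome c, and complex IV gives them to oxygen. Proton pumping by complexes I, III and IV drives complex V, the ATP synthase. Hepatocytes hold many mitochondria and use this ATP for urea synthesis, gluconeogenesis and protein secretion. A few subunits are encoded in mitochondrial DNA and the others in the nucleus, where the transcription factors NRF1, GABPA, YY1 and the estrogen-related receptors, with the coactivator PGC-1alpha, are known regulators of their genes.

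Respiratory chain genes had lower signals in globule-containing areas, by small amounts, and the median of each complex was below 0. Of the 93 genes, 90 had a mean log2 signal at or above 4.76, the median of all probe sets that name 1 gene, which served as the floor. Among these 90, 74 had a negative difference (log2 signal in globule-containing minus that in globule-free areas), against 45.5% of the 15023 genes of the whole table above the floor. The median difference was -0.46 for the members and 0.05 for all genes above the floor. A difference of at least 0.5 on the log2 scale in the lower direction was found for 40 members, which is 44.4%, against 14.2% of all genes. In the higher direction 2 members passed it, Cox6a2 and Ndufaf5, against 19.4% of all genes. No member was at least 2-fold apart in either direction, where 5.26% of all genes passed 2-fold in the lower and 6.47% in the higher direction. Among the 13630 genes within the members' own range of mean signal these shares were alike, at 45.2% below 0, 14.8% lower and 20.4% higher by 0.5, and 5.58% lower and 6.95% higher by 2-fold. On quantile normalized values 14 of 90 members passed 2-fold (15.6%), all lower, against 12.1% of all genes in either direction and 6.41% in the lower one. On loess corrected values 15 did (16.7%), all lower, against 12.1% and 6.48%. Just inside the limit of 0.5 lay Ndufs6 at -0.51 and Cox7b at -0.50, and just outside it Ndufs7 at -0.48 and Sdhd at -0.47.

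In bulk RNA of captured areas, fewer hepatocytes and less of these transcripts per hepatocyte cannot be told apart. Of 7 hepatocyte markers, Alb was saturated on both arrays and Ttr lay within 0.2 of the highest value on the globule-free array. Of the other 5, 4 were at least 0.5 lower in globule-containing areas, among them Cps1 of the urea cycle at -2.37, and Apob differed by -0.15. The median of these 5 was -0.80, and their summed log2 signal was 19.96 in globule-containing areas, against 20.84 in globule-free areas. The 10 stellate cell and fibroblast markers above the floor were without exception higher by 2-fold or more in globule-containing areas, and summed to 15.66 against 12.32. The eleventh, Des, was at background on both arrays, and Col1a2 and Acta2 were at background on the globule-free array. Macrophage markers split, with 7 of 15 passing 2-fold in the higher and 3 in the lower direction, with a median difference of 0.62. The 3 lower ones were Clec4f, Vsig4 and Marco. The 7 higher ones were Gpnmb, Lyz2, Cd68, Tyrobp, Itgam, Ccr2 and Csf1r, with Itgam and Ccr2 at background on the globule-free array. The summed log2 signal of the macrophage markers, 18.22 against 13.83, was carried by Lyz2, and was 15.66 against 13.02 without it. Of 8 endothelial markers 1 passed 2-fold, higher, with a sum of 11.97 against 11.54. Neutrophil markers summed to 12.16 against 7.43, carried by S100a8 and S100a9, with differences of 5.92 and 4.54. Ly6g had 5.35 against 5.07, and Mpo was at background on both arrays. Of 4 cholangiocyte markers only Sox9 was above background on both arrays, with 6.11 against 5.88, and the list summed to 7.48 against 7.08. Krt7 was at background on both arrays, and Krt19 and Epcam on the globule-free array. Of the lymphocyte markers, Cd3d, Cd3e and Cd79a were at background on both arrays and Nkg7 on the globule-free array. That list summed to 8.92 against 7.55, and to 6.49 against 6.47 without Ptprc, which leukocytes of all kinds express. The part of other cells in the lower respiratory chain signals was not tested.

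The share of members at least 0.5 lower was above that of all genes in each band of mean log2 signal from 6 upwards, as the plot of shares by band shows. From 6 to 8 it was 5 of 13 members (38.5%) against 13.9% of genes, and from 8 to 10 it was 10 of 21 (47.6%) against 19.1%. From 10 to 12 it was 7 of 19 (36.8%) against 21.9%, and from 12 to 14 it was 11 of 15 (73.3%) against 22.9%. Between 14 and 16 the counts were 6 of 12 (50.0%) against 21.1%. The brightest band rests on 1 of 4 members, against 14.4% of genes. None of the 6 members below 6 passed the limit, against 9.33% of genes there. Genes of the whole table with signals from 8 to 16 passed the limit more often than dimmer ones, but less often than members of the same brightness.

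**Figure D1:**
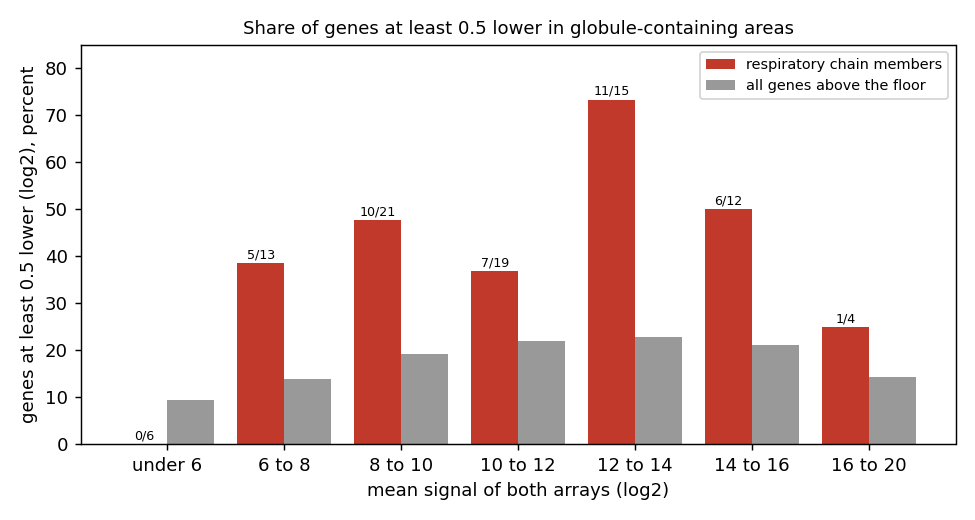
Bars give the percentage of genes at least 0.5 lower in globule-containing areas (log2), by mean log2 signal of both arrays, for respiratory chain members (left, red, with counts) and all genes above the floor (right, grey). Members exceed all genes in each band from 6 upwards, for example with 11 of 15 members against 22.9% of genes between 12 and 14.

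Promoter sequences of the members whose differences lie at the ends of the range, and of 1 member that holds letters of 2 of the known regulators, are shown here so that the regions can be read beside the values. They come from RefSeq (GRCm38.p6), run 5′ to 3′ on the gene's strand and cover 250 bases before and 50 after the annotated start. Capitals mark matches to a searched motif. The first group is that of the 3 lowest members with a single listed promoter: Ndufc2 at chr7:97399753-97400052 (+ strand), Ndufv2 at chr17:66101510-66101809 (- strand) and Ndufs8 at chr19:3912725-3913024 (- strand). Sdhd at chr9:50603800-50604099 (- strand) is the lowest of the members with 2 kinds of motif, and Ndufb6 at chr4:40279372-40279671 (- strand) and Cox7a2l at chr17:83514284-83514583 (- strand) are the highest ubiquitous subunits.
Ndufc2: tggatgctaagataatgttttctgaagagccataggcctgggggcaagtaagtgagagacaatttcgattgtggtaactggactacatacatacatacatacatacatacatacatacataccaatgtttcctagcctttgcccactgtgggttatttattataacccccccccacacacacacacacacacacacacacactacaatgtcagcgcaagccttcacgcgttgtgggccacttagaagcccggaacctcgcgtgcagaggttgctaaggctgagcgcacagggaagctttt
Ndufv2: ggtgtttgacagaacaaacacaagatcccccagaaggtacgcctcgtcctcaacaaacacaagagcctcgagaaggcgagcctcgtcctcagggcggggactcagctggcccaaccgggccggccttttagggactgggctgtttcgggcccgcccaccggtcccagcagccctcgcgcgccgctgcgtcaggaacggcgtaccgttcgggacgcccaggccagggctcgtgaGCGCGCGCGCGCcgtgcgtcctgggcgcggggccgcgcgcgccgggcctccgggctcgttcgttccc
Ndufs8: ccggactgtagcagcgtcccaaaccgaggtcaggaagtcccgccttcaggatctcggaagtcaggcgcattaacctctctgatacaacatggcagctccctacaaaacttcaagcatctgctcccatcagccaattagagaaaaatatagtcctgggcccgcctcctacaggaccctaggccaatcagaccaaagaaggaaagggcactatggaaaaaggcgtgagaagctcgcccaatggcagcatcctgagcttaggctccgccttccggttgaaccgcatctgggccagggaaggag
Sdhd: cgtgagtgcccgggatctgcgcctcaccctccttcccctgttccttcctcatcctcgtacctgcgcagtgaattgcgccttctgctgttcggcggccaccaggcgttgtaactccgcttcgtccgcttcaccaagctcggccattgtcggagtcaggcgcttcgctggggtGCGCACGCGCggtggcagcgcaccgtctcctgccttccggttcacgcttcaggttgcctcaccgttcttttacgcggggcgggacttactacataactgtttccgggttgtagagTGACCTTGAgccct
Ndufb6: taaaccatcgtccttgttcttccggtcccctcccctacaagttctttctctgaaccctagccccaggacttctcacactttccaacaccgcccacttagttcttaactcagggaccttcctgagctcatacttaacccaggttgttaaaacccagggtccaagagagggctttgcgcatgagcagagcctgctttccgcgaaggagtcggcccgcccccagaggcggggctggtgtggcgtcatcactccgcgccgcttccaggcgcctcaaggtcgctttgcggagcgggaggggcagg
Cox7a2l: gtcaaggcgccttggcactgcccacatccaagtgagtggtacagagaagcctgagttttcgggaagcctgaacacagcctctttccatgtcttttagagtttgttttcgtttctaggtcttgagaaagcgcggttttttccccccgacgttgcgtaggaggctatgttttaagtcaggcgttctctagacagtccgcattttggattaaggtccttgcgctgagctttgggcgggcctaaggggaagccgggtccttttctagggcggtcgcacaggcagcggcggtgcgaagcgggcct

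The core letters of the NRF1 site, which stand in capitals in Ndufv2, were searched on both strands and found in the promoters of 17 of 73 members above the floor that have one listed. This is 23.3%, against 13.9% of 8806 genes with a probe set above the floor and 7.0% of all 27025 genes with a promoter of the same length. Ndufv2 holds it in 2 overlapping matches that begin 17 and 15 bases before the start, and Sdhd in 1 that begins 79 bases before it. Ndufc2, Ndufs8, Ndufb6 and Cox7a2l hold none of the 4 motifs in this window, which says nothing of the factors themselves. The YY1 motif was found in 5 of 73 members (6.85%), against 2.29% of genes above the floor, and the GABPA motif CCGGAAGT in 5 of 73, against 8.60%. The estrogen-related receptor motif TCAAGGTCA was found in Atp5g3 and Sdhd, where 0.363% of genes above the floor hold it. Members with the NRF1 letters had a median difference of -0.46 and those without them -0.44, so the lower signals were found with and without them.

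Complex I had lower signals for most of its subunits. The measured nuclear-encoded core subunits, most of which carry the flavin or iron-sulfur clusters, were lower without exception. Pairs of values given here for both areas are log2 signals. Of 34 subunits, all above the floor, 29 had a negative difference and 18 were at least 0.5 lower, none at least 0.5 higher, with a median of -0.51. Its 6 measured nuclear-encoded core subunits had a median of -0.75, and the 28 supernumerary subunits, which surround the core, -0.49. Ndufs1, the largest iron-sulfur subunit of the NADH-oxidising arm, gave a log2 signal of 8.64 in globule-containing areas, against 9.62 in globule-free areas, which is 1.98-fold lower and the lowest difference of all members above the floor, at -0.98. Ndufv2, an iron-sulfur subunit beside it, had 7.85 in globule-containing areas, against 8.80 in globule-free areas, a difference of -0.95. Ndufv1, which binds NADH and the flavin, had 8.51 against 9.07. These 3 form the entry of electrons into the chain, and all were lower in globule-containing areas.

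In the arm that reduces coenzyme Q, Ndufs8, an iron-sulfur subunit, had 9.67 in globule-containing areas, against 10.62 in globule-free areas, 1.93-fold lower. Ndufs7, which holds the last cluster before the quinone, had 7.13 against 7.61, and Ndufs3, a core subunit without a cluster, 8.68 against 9.06. The 4 measured subunits listed for this module had a median of -0.57 and the 11 of the NADH module -0.46. The 19 subunits listed for neither module had a median of -0.66. Most of these belong to the proton-pumping membrane arm, but Ndufa9 among them lies in the quinone arm.

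Of the 19 subunits listed for neither module, 11 were at least 0.5 lower (57.9%), close to the 52.9% of all 34 complex I subunits. Ndufc2 had 11.87 in globule-containing areas, against 12.83 in globule-free areas, a difference of -0.96, and Ndufb11 had 12.21 against 13.13. Ndufb10 had 9.07 against 9.99. All 3 are supernumerary subunits of the membrane arm. Ndufa3, Ndufb8, Ndufb9, Ndufa13 (also known as GRIM-19), Ndufb4b, Ndufb5, Ndufa8 and Ndufa9 were the others of these 11, with differences between -0.86 (Ndufa3) and -0.51 (Ndufa9). Within the listed modules, Ndufa2, a supernumerary subunit of the NADH module, had a difference of -0.70, Ndufa5 of the quinone module -0.66 and Ndufs6 -0.51. The Ndufs6 annotation lists 2 Entrez genes under this symbol.

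Not all subunits of complex I followed. Ndufb6, of the membrane arm, had 13.45 in globule-containing areas, against 13.14 in globule-free areas, a difference of 0.31 that was 0.08 after quantile normalization and 0.07 after loess correction. Ndufa6, a member of the LYR protein family that anchors the acyl carrier protein Ndufab1, had 10.01 against 9.85, while Ndufab1 itself had 6.75 against 7.21. Ndufa7 differed by 0.15. Ndufs4, whose loss in mice gives an encephalopathy like Leigh syndrome, had 11.57 against 11.56, and Ndufa1 differed by 0.07. Ndufb2, at -0.01, was as close. Ndufs4 and Ndufa1 lay below 0 after quantile normalization or loess correction, and Ndufb2 above 0 after median centring, so no direction is given for them.

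**Figure D2:**
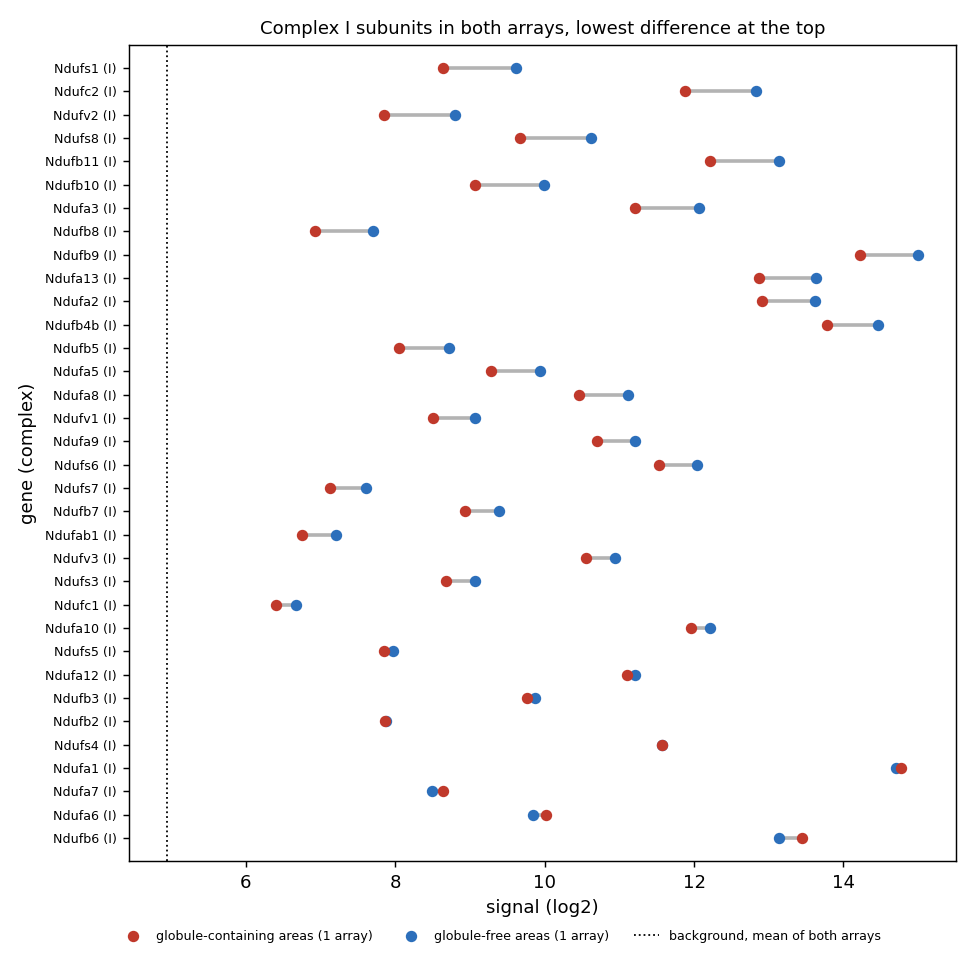
Log2 signal of the 34 complex I subunits on the globule-containing array (red) and the globule-free array (blue), 1 array each, ordered by their difference; the dotted line is the background. The red point lies left of the blue one for 29 subunits, and the widest gap is that of Ndufs1, at 8.64 against 9.62.

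Complex II, which also belongs to the citric acid cycle and has no mitochondrially encoded subunit, showed smaller differences. Its 4 subunits had negative differences with a median of -0.28, and none was at least 0.5 lower. Sdhd, a membrane anchor, had 9.80 in globule-containing areas, against 10.28 in globule-free areas, and Sdha, the flavoprotein that oxidises succinate, had 9.93 against 10.33. Sdhb, the iron-sulfur subunit, differed by -0.16. The other anchor, Sdhc, had 10.96 against 10.98 and lay above 0 after median centring. After quantile normalization the median of complex II was -0.45, and after loess correction also -0.45.

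Complex III had the lowest median of the complexes, -0.61, with all 9 genes below 0 and 6 at least 0.5 lower. Cyc1, which encodes cytochrome c1, the subunit that reduces cytochrome c, had 10.90 in globule-containing areas, against 11.81 in globule-free areas, 1.88-fold lower. Uqcrfs1, the Rieske iron-sulfur protein that takes electrons from the quinol, had 8.81 against 9.42. The small subunits were low as well, with -0.87 for Uqcr11, -0.79 for Uqcrh, the hinge protein that binds cytochrome c1, -0.73 for Uqcr10 and -0.52 for Uqcrq. Both core proteins, which face the matrix and carry no redox centre, differed less. Uqcrc1 had 11.23 in globule-containing areas, against 11.31 in globule-free areas, and lay above 0 after median centring, and Uqcrc2 had 11.46 against 11.67. Uqcrb differed by -0.26.

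Cycs encodes cytochrome c, the soluble carrier between complexes III and IV that also triggers apoptosis when released. Its average over 2 probe sets was 13.23 in globule-containing areas, against 13.78 in globule-free areas, a difference of -0.55. The probe sets disagreed in size. The one on chromosome 6, where Cycs lies, had 13.01 against 13.27, a difference of -0.27, and the one that the platform's identifier puts on chromosome 19 had 13.46 against 14.29, a difference of -0.83. Cytochrome c has processed copies elsewhere in the genome, so the value of -0.27 is the one tied to the gene's own chromosome.

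Complex V was lower in 16 of 17 genes, with 8 at least 0.5 lower and a median of -0.47, which was -0.71 after quantile normalization and -0.70 after loess correction. In the catalytic F1 part, Atp5a1, the alpha subunit, had 13.52 in globule-containing areas, against 14.13 in globule-free areas, and Atp5b, the beta subunit that holds the catalytic sites, had 11.61 against 12.03. Atp5e, the epsilon subunit of the central stalk, had 13.40 against 14.31, a difference of -0.90 and the lowest of this complex. Atp5d, the delta subunit, had 8.82 against 9.31 on its brighter probe set, a difference of -0.49. Its other probe set was at background on the globule-containing array, and the average of both, which was counted, was -0.42. The gamma subunit, Atp5c1, was not analysed here.

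The stalk that holds the F1 part in place was low in its measured members. Atp5f1, the b subunit, had 8.95 in globule-containing areas, against 9.81 in globule-free areas, and Atp5o, the oligomycin sensitivity-conferring protein, had 11.79 against 12.51. Atp5j, coupling factor 6, differed by -0.68, and Atp5h, the d subunit, by -0.26. Among the small membrane subunits, Atp5k differed by -0.65, Atp5md by -0.51, Atp5mpl by -0.07 and Atp5j2 by 0.04, which lay below 0 after quantile normalization or loess correction. Atp5l2, listed without an Entrez gene, had 15.34 against 16.17. Atp5l, subunit g, was averaged over 3 probe sets to -0.37. The one above background on chromosome 9, where the gene lies, had 7.07 against 7.10, the one on chromosome 5 differed by -0.43, and the other on chromosome 9 was at background on the globule-containing array.

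The c ring, which turns as protons pass, is built from 1 protein that 3 genes encode with different import sequences. Atp5g3 had 12.67 in globule-containing areas, against 13.14 in globule-free areas, a difference of -0.47, and Atp5g2 had 14.43 against 14.71. Atp5g1 had 8.65 against 8.71, and lay above 0 after median centring, as did Atp5mpl. None of these 3 passed the limit of 0.5. Of the 2 probe sets of Atp5g2, the one on chromosome 15, where the gene lies, differed by -0.20 and the other by -0.38, where 0.17 is the median gap between 2 probe sets of 1 gene.

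**Figure D3:**
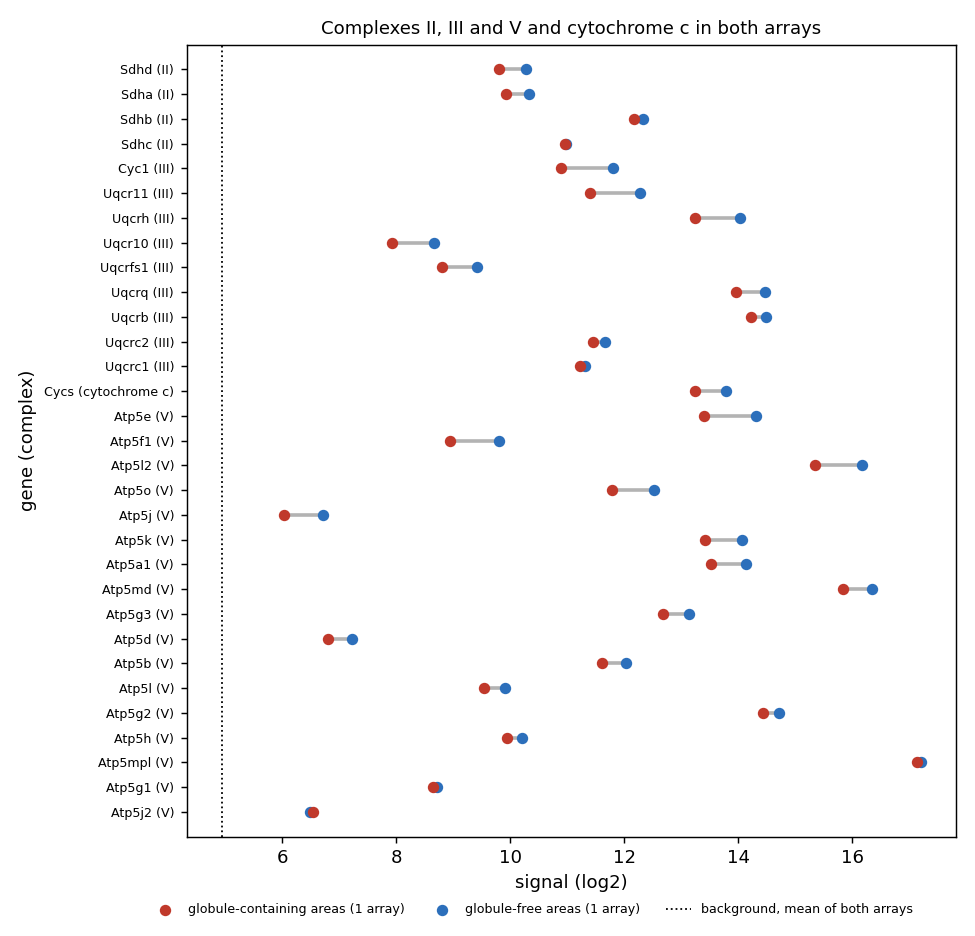
Log2 signal of the genes of complexes II, III and V and of cytochrome c on the globule-containing array (red) and the globule-free array (blue), 1 array each, ordered by their difference within each complex; the dotted line is the background. The red point lies left of the blue one for all genes of complexes II and III and for 16 of 17 of complex V; the exception is Atp5j2 at the bottom.

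Complex IV was the most mixed complex. Of its 20 genes 17 were above the floor, of which 10 had a negative and 7 a positive difference, with 4 at least 0.5 lower, 1 at least 0.5 higher and a median of -0.32. This median was -0.55 after quantile normalization and -0.56 after loess correction. Without the tissue isoforms, 8 of 12 genes had a negative difference, with 3 at least 0.5 lower, none at least 0.5 higher and a median of -0.33. The subunits closest to the catalytic core were lower by less than 0.5. Cox4i1, the largest nuclear subunit, through which ATP inhibits the enzyme, had 11.25 in globule-containing areas, against 11.63 in globule-free areas. Cox5a had 15.17 against 15.46 and Cox5b, which binds zinc, 15.08 against 15.41. Cox6b1, which lies on the intermembrane side where cytochrome c docks, was the lowest of this complex outside the tissue isoforms, with 15.40 against 16.17. Ndufa4, named for complex I but found in complex IV, had 17.02 against 17.48 and was counted here. Cox7a2 differed by -0.57, Cox7b by -0.50 and Cox8a by -0.32.

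Several complex IV genes were level or higher in globule-containing areas. Cox7a2l, also called SCAF1, which joins complexes III and IV into supercomplexes and of which C57BL/6 mice carry a short form, had 11.51 in globule-containing areas, against 11.08 in globule-free areas, a difference of 0.43. Its relatives Cox7a2 and Cox7a1 differed by -0.57 and -0.77. Cox7c had 8.90 against 8.63, and Cox6c 8.12 against 8.0. Cox6a1, the liver form of its subunit, had 17.03 against 16.98, and lay at -0.26 after quantile normalization and -0.27 after loess correction.

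Isoforms known from other tissues were mostly near background, taken as the level that 95% of probe sets for olfactory and vomeronasal receptors do not exceed, 4.85 on the globule-containing and 5.04 on the globule-free array. Cox8b of muscle and brown fat, Cox8c of testis and Ndufa4l2, which hypoxia induces, were at or below it on both arrays and below the floor. Cox4i2, the isoform of lung and low oxygen, had 5.20 in globule-containing areas and lay at background in globule-free areas, as did Cox7b2 of testis, which had 5.07 in globule-containing areas. The muscle form Cox6a2 had 6.24 in globule-containing areas, against 5.49 in globule-free areas, a difference of 0.75 and the highest of all members. The muscle markers Ckm and Myh7 were at background on both arrays, and Acta1 had 5.27 against 5.26. Cox7a1, another muscle form, went the other way, with 6.53 against 7.30. Cox6b2 of testis had 5.37 against 5.75.

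Assembly factors had a median closer to that of all genes, but a share lower near that of the subunits. Of the 8 that the rule took, 3 were at least 0.5 lower, 1 was at least 0.5 higher and the median was -0.10. The share lower was 37.5%, against 45.1% of subunits and 14.2% of all genes. With the floor raised to 6.70, the 75th percentile, the median was -0.20. Ndufaf6 had 7.28 in globule-containing areas, against 8.02 in globule-free areas, and Ndufaf4 had 8.43 against 9.13. Atp5sl, an assembly factor of complex I despite its name, differed by -0.63. Ndufaf5, which in human cells hydroxylates NDUFS7, had 5.73 against 5.13, and Ndufaf7, a mitochondrial methyltransferase, 5.66 against 5.21. Ndufaf1 and Ndufaf2, at 0.00 and 0.04, changed sign between scalings.

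**Figure D4:**
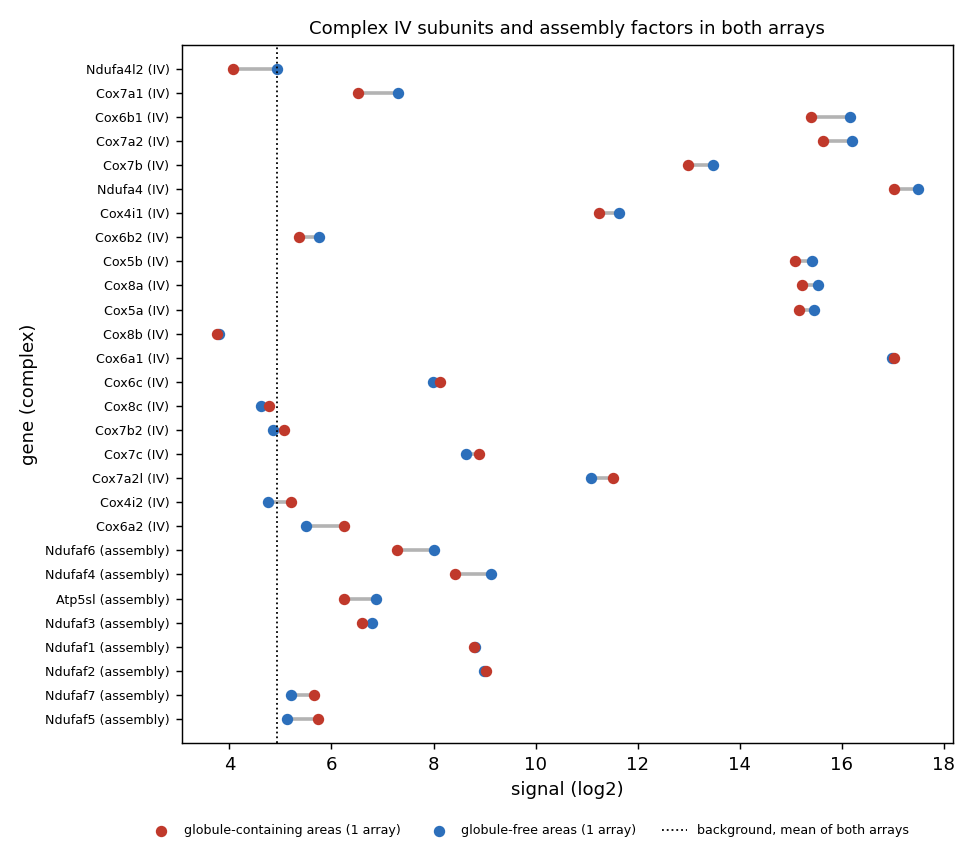
Log2 signal of the 20 complex IV genes and 8 assembly factors on the globule-containing array (red) and the globule-free array (blue), 1 array each, ordered by their difference within each class; the dotted line is the background. Cox7a2l and Cox6a2 have the red point on the right, and Cox8b, Cox8c and Ndufa4l2 lie at or below background on both arrays.

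Other genes that build, feed or maintain the chain were read from lists that the rule did not take. Assembly factors of other symbols went both ways, with 7 of 30 at least 0.5 lower, 7 at least 0.5 higher and a median of -0.07. Atpif1, the inhibitor of ATP synthase that blocks ATP hydrolysis, was the furthest apart, with 7.78 in globule-containing areas, against 6.01 in globule-free areas. Sdhaf4, which aids complex II assembly, had 6.97 against 7.97, and Timmdc1, a complex I assembly factor, differed by -0.99. Genes of coenzyme Q synthesis and transport had a median of -0.07, with 1 of 10 at least 0.5 lower. That gene, Coq10b, had 8.86 against 9.73, while Coq9 differed by -0.18 and Pdss2 by -0.16.

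Enzymes of the citric acid cycle and pyruvate dehydrogenase had a median of 0.06, with 2 of 17 at least 0.5 lower and 3 at least 0.5 higher. Cs, citrate synthase, had 12.49 in globule-containing areas, against 10.17 in globule-free areas, and Fh1, fumarase, had 10.20 against 11.89. Sucla2, a subunit of succinyl-CoA ligase, differed by -0.66. Complex II, at a median of -0.28, shares this cycle. Of 14 carriers and enzymes that feed electrons or substrates to the chain, 6 were at least 0.5 lower and 2 at least 0.5 higher. The share lower was 42.9%, against 14.2% of all genes, and the median was -0.05. Slc25a13, the aspartate-glutamate carrier citrin, had 10.48 against 12.15, Chdh, choline dehydrogenase, differed by -0.96 and Etfdh, which passes electrons from fatty acid oxidation to coenzyme Q, by -0.94.

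Protein import and inner membrane organisation had 4 of 19 genes at least 0.5 lower and 3 at least 0.5 higher, with a median of -0.06. This median was -0.26 after quantile normalization and -0.27 after loess correction. The genes furthest apart were small chaperones of the intermembrane space. Timm13 had 8.20 in globule-containing areas, against 7.05 in globule-free areas, and Timm10 differed by 0.92. Timm8b differed by 0.85. Among chaperones, proteases and stress genes of mitochondria, 1 of 19 was at least 0.5 lower and 5 were at least 0.5 higher. Of all genes, 14.2% were lower and 19.4% higher by this limit. The median of this list was 0.14, and it was -0.05 after quantile normalization and -0.04 after loess correction. Atf5, a transcription factor of the mitochondrial unfolded protein response, had 8.19 against 6.56, Ddit3, which encodes the stress factor CHOP, differed by 1.63 and Clpp, a matrix protease, had 9.21 against 7.63.

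Regulators split as well. Ppargc1a, which encodes PGC-1alpha, had 7.03 in globule-containing areas, against 9.07 in globule-free areas and Ppara 8.72 against 10.21, while Twnk, the helicase of mitochondrial DNA, had 6.47 against 5.08. Gabpa, Nrf1 and Yy1, whose motifs were searched above, differed by 0.25, 0.22 and -0.56, with Nrf1 at background in globule-free areas. In all, 6 of 15 regulators were at least 0.5 lower and 2 at least 0.5 higher. The share lower was 40.0% for regulators and 42.9% for carriers, close to the 44.4% of members, against 14.2% of all genes. For the other lists it ran from 5.26% to 23.3%. The medians of these 7 lists lay near 0 on the deposited values, and none kept its sign under every scaling. Complexes I to V, with medians further from 0, had a negative median under the scalings tried (median centring, quantile normalization and loess correction). Median centring moves every difference by the same amount, so a median near 0 can change sign through this alone. A sign kept or lost therefore mainly shows how far a median lay from 0. Whether the members differ from these lists was not tested.

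Of the 13 subunits that mitochondrial DNA encodes, 5 have a probe set naming 1 gene. COX1, ND3 and ND6 were saturated on both arrays, within 0.2 of the highest value, and give no difference. ND2, a proton-pumping subunit of complex I, had 15.35 in globule-containing areas, against 16.22 in globule-free areas. COX2, a catalytic subunit of complex IV, had 11.76 against 11.63. For the mitochondrial genome these data therefore hold 1 lower value and 1 within 0.2.

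**Figure D5:**
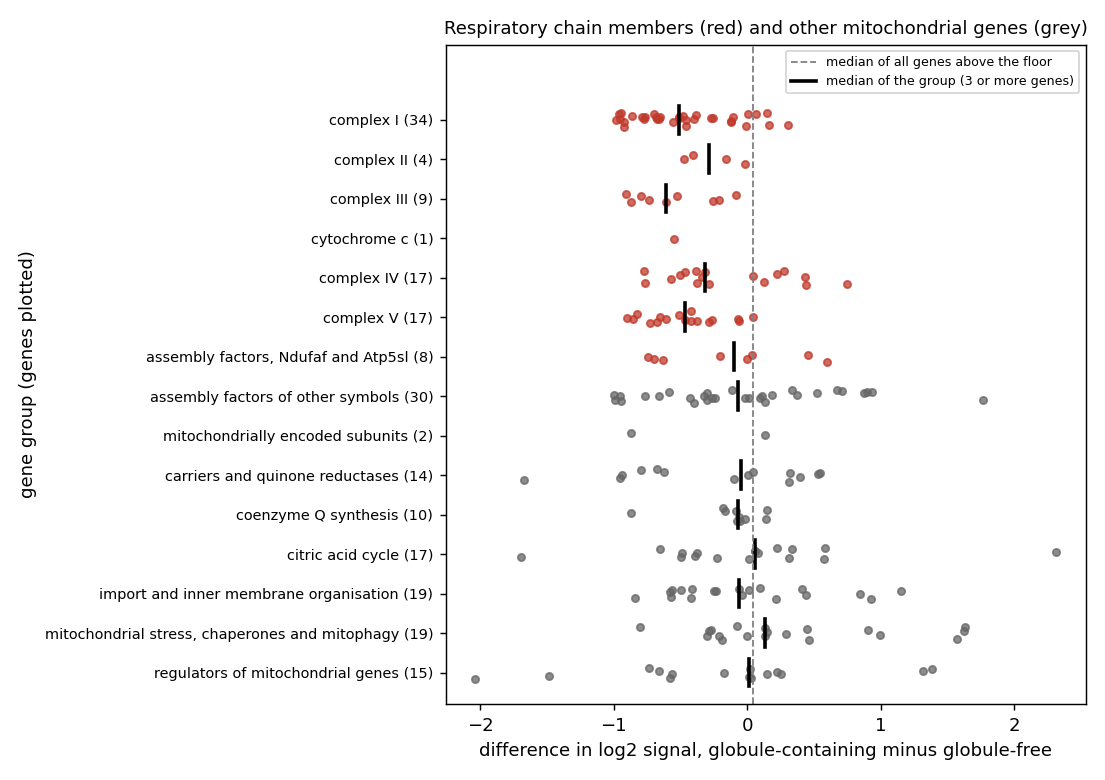
Each point is 1 gene above the floor and below saturation, and its place is the difference in log2 signal, globule-containing minus globule-free; red rows are respiratory chain members, grey rows other mitochondrial gene lists, and black bars the medians of groups of 3 or more. The medians of complexes I, III and V lie at -0.51, -0.61 and -0.47, and those of complexes II and IV at -0.28 and -0.32. The median of the assembly factors among the members lies at -0.10. Those of the grey lists lie between -0.07 and 0.14, near the dashed line of all genes at 0.05.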

How the data were processed

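RNA of laser-captured areas was amplified from 50 ng per array. The 72688 deposited values per array are on the log2 scale and were made by the authors with the Transcriptome Analysis Console, per the submitters' processing notes, with background correction, normalization and build not given in the sources used here. Values ran from 1.85 to 19.93 (globule-containing) and 1.85 to 19.80 (globule-free), with medians of 4.40 and 4.49.

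Of all probe sets, 30604 named 1 symbol (repeats of a symbol counted once) and 2146 several. Newer symbols were taken through Entrez IDs for other genes, and members kept the platform's names. Probe sets of 1 gene were averaged, which gave 30142 genes, of which 15023 lay above the floor. The difference of the deposited values is reported. A single array per group leaves no spread to test against, so neither a test nor an SD is given. Any member could be named. Of each other list, the 3 genes with the largest absolute difference are named. Markers are named where they bear on a summed level, a split of directions or background, after their values were seen. Gabpa, Nrf1 and Yy1 were added for their motifs, also after their values were seen. Members and lists were chosen with earlier results of these data known. The median gap between the differences of 2 probe sets of 1 gene was 0.17 (177 genes), which served as the tolerance for medians. The chromosome in the platform's identifier matched RefSeq for 99.6% of 22622 probe sets, and for all but 3 of the members' probe sets that could be compared. The number of arrays limits the precision. The scripts were tested on simulated arrays. Python 3.11.15, numpy 2.4.6, pandas 2.3.3 and statsmodels 0.14.6 were used.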

Additional observations from a re-analysis of the deposited data

How the results depend on the processing

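Alternatives were the floor, 3 scalings of the arrays, the choice of probe set, the handling of dim members, assembly factors and tissue isoforms, probe sets that name several genes, and the threshold; using only probe sets on the gene's own chromosome, bands of signal, and marker sums without single genes were chosen after seeing the data. Across the alternatives other than the threshold, the median over all members stayed between -0.60 (loess correction) and -0.36 (median centring), and the count of members at least 0.5 lower between 32 (35.6%, against 11.6% of all genes, median centring) and 55 (61.1%, loess correction, with 2411 of 15023 genes lower). With quantile normalization it was 54 (60.0% against 16.1%). A threshold of 0.3 gave 56 (62.2% against 22.1%) and one of 0.7 gave 22 (24.4% against 9.43%). Members at least 2-fold apart numbered 14 after quantile normalization (15.6% against 12.1%) and 15 after loess correction (16.7% against 12.1%). On the deposited values 34 were at least 1.5-fold apart in either direction (37.8% against 27.9%), and 32 at least 1.5-fold lower (35.6% against 11.9%). Loess correction gave -0.78 for complex III, -0.56 for complex IV and -0.70 for complex V, and quantile normalization -0.55 for complex IV and -0.71 for complex V. The cause was not tested. The share of all genes at least 0.5 lower was 14.8% within the members' range of signal, 20.02% for mean signals from 8 to 12 and 22.2% from 12 to 16. Single differences of 11 members, none beyond 0.08 from 0, changed sign under a scaling. No paired analysis was possible because each group is 1 array. Dim members near background and the saturated mitochondrially encoded genes limit what can be read.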

Other observations

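Rows that match a respiratory chain symbol but were left out by the rule gave these values. A probe set naming Ndufb4 together with Gm3244 had 8.5 in globule-containing areas, against 8.99 in globule-free areas, and one naming Ndufa11 with Ndufa11b had 10.36 against 10.69. Cox5b with Gm11273 had 13.06 against 13.30, and Atp5g2 with Gm10231 had 13.19 against 13.42. The pseudogene entries Atp5l-ps1 and Atp5c1-ps differed by -0.52 and -0.19. All 6 rows were lower in globule-containing areas, as were 45.5% of all genes above the floor, and only Atp5l-ps1 passed the limit of 0.5. Cox5b and Atp5g2 are also members through other probe sets, so these rows are not independent of the members.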
